A study of Rattus norvegicus with 40 samples.

Results

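Adrenal glands of male Sprague Dawley rats given the highest dose of an organophosphate ester mixture were set against those of males given its lowest dose. The libraries were taken from the deposited per-library files whose value column begins with F0M and ends in D (the 30000x dose) or in B (the 30x dose). This gave 5 libraries at 30000x and 5 at 30x, 10 of the 40 libraries of the series, and no control library entered the comparison. The series also holds males that were controls or received 1000x, and females in the same 4 conditions, with 5 libraries in each of its 8 groups. All animals were adult by their labels, and the labels name the replicates biological without naming a litter or a day. Each library has a number of its own in the name of its value column, but the sources used here do not say that it marks an animal. The labels give no exact age, route, length of exposure or amount behind a multiple, nor do the sources used here give the makeup of the mixture beyond its chemical class. Since separate animals are not stated in so many words, the p-values below are taken to measure only the spread between these libraries.

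Organophosphate esters are used as flame retardants and plasticizers. The adrenal gland consists of a cortex, which makes steroid hormones from cholesterol in concentric zones, and an inner medulla, which makes catecholamines. The cortex is rich in lipid, and corticosterone is the main glucocorticoid of the rat. A whole gland in bulk also carries capsule, blood vessels and immune cells, so that fewer cells of a type and less RNA per cell cannot be told apart in such values.

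The files identify genes by Ensembl identifiers alone, and 0 of the 12414 identifiers tested here matched the 47357 rows of the gene table used for names. Values are therefore given by identifier with no gene name or role, the adrenal label was not checked against marker genes, and lists of steroidogenic, medullary, immune, fat or other genes were not analysed here. For the same reason no sequence is printed. Levels are FPKM, fragments per kilobase of gene on a library scale set by the authors. Differences are in log2(FPKM + 1), 30000x minus 30x. Adding 1 shrinks the difference of genes of a few FPKM.

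Of 32545 genes listed, 12414 had at least 1 FPKM in at least 5 of the 10 libraries and were tested. The 20131 genes left out included 11545 with no read in any of the 10. Of the genes tested, 11019 were at 1 FPKM or more in all 10 libraries, and 3 reached 1 FPKM in 1 dose group alone, 2 of them at 30000x.

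The reads recovered from the FPKM values ranged from 15169843 to 23838651 per library at 30x and from 14221961 to 20476725 at 30000x. The deepest library was 30x replicate 3, and the other 4 at 30x held at most 16888392. The number of genes at 1 FPKM or more ran from 12354 to 12582 at 30x and from 12272 to 12603 at 30000x. The means differed by 13.6 genes (exact permutation test, two-sided, p = 0.865, n = 5 each). The 10 genes with the most reads together took 20.8 ± 1.80% of reads at 30x and 19.3 ± 2.74% at 30000x (SD, n = 5 each). That difference was -1.53 percentage points (exact permutation test, two-sided, p = 0.317), and it was -0.709 without 30000x replicate 4 and -2.40 without 30000x replicate 1. After Benjamini-Hochberg adjustment over these 2 tests, both exact p-values were 0.634 or above, in a design whose smallest possible p is 0.0079. By library this share ran from 18.01% to 22.93% at 30x and from 16.01% to 22.78% at 30000x, so that the groups overlapped.

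Libraries of the same dose were no more alike than libraries of different doses. Over the tested genes, the correlation of log2(FPKM + 1) had a median of 0.966 in the 20 pairs within a dose (0.957 to 0.976) and of 0.968 in the 25 pairs between doses (0.955 to 0.972). These correlations are over genes, and each library enters several pairs. In 4 of the 10 libraries the median correlation with the library's own dose was above that with the other dose. The library least like its own group was 30x replicate 5, with a median correlation of 0.9597, where the other 4 at 30x had 0.9658 to 0.968. In a principal component analysis the first component held 19.4% of the variance and the second 15.1%. On the first component 30x replicate 5 stood at 33.5, while the other 9 libraries lay between -17.9 and 13.0 with both doses mixed.

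**Figure D1:**
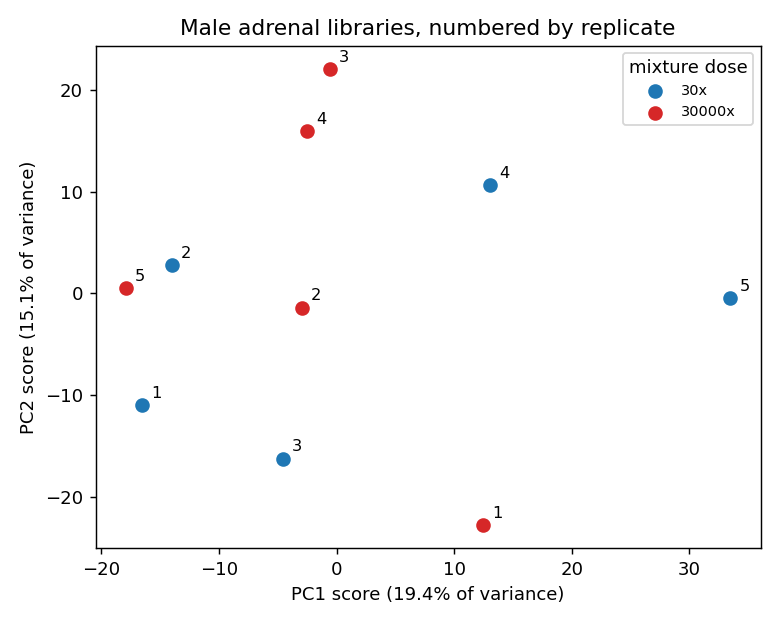
Scores of the 10 male libraries on the first 2 principal components of log2(FPKM + 1) over 12414 genes, with points coloured by dose and numbered by replicate. The doses are intermixed, and 30x replicate 5 lies alone at 33.5 on the first component.

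The spread within a dose was of similar size in both groups. The median SD of a gene on the log2(FPKM + 1) scale was 0.200 at 30x and 0.196 at 30000x, and 48.6% of genes had the larger SD at 30000x. The typical deviation of a library from the mean of the other 4 of its dose, as the median over genes, was between 0.146 and 0.200. The largest value was that of 30000x replicate 1 and the smallest that of 30000x replicate 4.

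No gene passed the test between the highest and the lowest dose. In a limma fit of the 10 libraries, 0 of 12414 genes (0%) had an adjusted p (Benjamini-Hochberg) under 0.05. The smallest adjusted p was 0.892, shared by 12 genes. At an unadjusted p under 0.05 there were 488 genes (3.93%), 256 higher and 232 lower at 30000x, where 5% of the genes tested is 621. With each library scaled to its own FPKM total, the split at this p was 396 higher and 83 lower (82.7% higher, against 52.5%), and with quantile normalization it was 245 and 262. When voom was applied to the recovered reads the count was again 0, with 474 genes at an unadjusted p under 0.05.

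**Figure D2:**
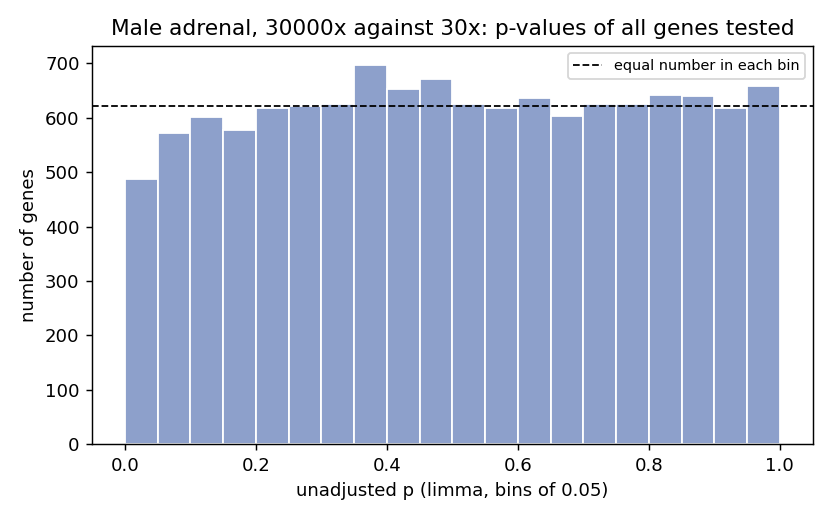
Histogram of the unadjusted limma p-values of the 12414 genes in 20 bins of equal width, with a dashed line at 621, the height of equal bins. The first bar, which holds p under 0.05, is the lowest at 488 genes, and the highest bar holds 697.

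Differences were small for most genes. The median difference over all genes was -0.002 on the log2(FPKM + 1) scale, the median size 0.091, and percentiles 1 and 99 were at -0.54 and 0.56. The 95% interval of the difference had a median half-width of 0.288 and lay within ±1 for 11680 genes (94.1%). Within ±0.5 it lay for 69.3%. These intervals are for single genes and are not adjusted for their number.

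Precision was lowest for genes of low abundance. Among 1318 genes with a mean under 2 FPKM, the interval lay within ±0.5 for 39.5%, and its median half-width was 0.40. Among 4755 genes from 2 to under 10 FPKM it lay there for 60.5%, among 5664 genes from 10 to under 100 FPKM for 82.2%, and among 677 genes at 100 FPKM or more for 82.0%. Genes at an unadjusted p under 0.05 made up 3.95%, 4.42%, 3.80% and 1.62% of these classes in the same order. In the top class 3 were higher and 8 lower at 30000x.

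The most abundant genes lay slightly on the lower side at 30000x on the deposited scale. Of the 677 genes at 100 FPKM or more, 72.2% were lower by any amount, with a median difference of -0.05, and 9 of the 10 genes with the most reads were lower, at -0.30 to 0.08. None of these 10 passed, and their smallest unadjusted p was 0.231 (limma adjusted p = 0.999). The direction of the class depended on the scale. With library totals the median of the 677 genes was 0.02 with 41.1% lower, and with quantile normalization it was -0.01 with 54.8% lower. The change to library totals moved the median of all genes to 0.07. The 10 genes with the most reads include the highest level in these libraries, a mean of 36670 FPKM, and the interval of each lay within ±0.81.

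Differences of a doubling or more on this scale occurred in few genes, and their dose groups mostly overlapped. A difference of at least 1 was found in 40 genes, 27 higher and 13 lower at 30000x, and the extremes were 1.68 and -1.52. In 34 of the 40 the groups overlapped, and 25 had at least 1 library under 1 FPKM and at least 1 library at 5 FPKM or more. Such a span was not counted over all genes tested, and picking genes by a large difference favours it. Their median SD within a dose was 0.89, against 0.21 over all genes tested. An unadjusted p under 0.05 was found in 27 of the 40, 17 higher and 10 lower, which is no separate evidence since the 40 were picked by the size of the same difference.

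**Figure D3:**
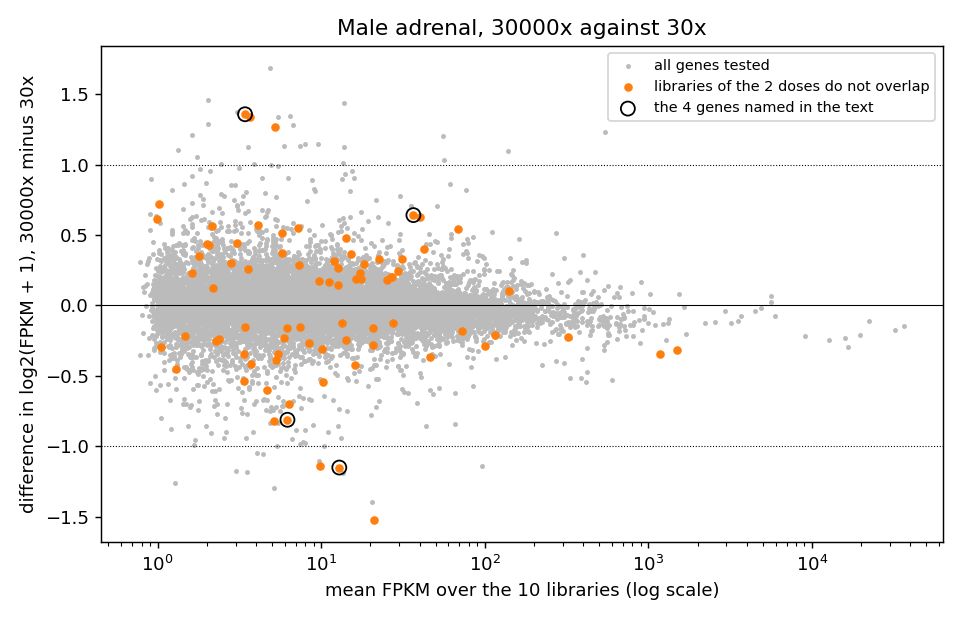
Difference in log2(FPKM + 1), 30000x minus 30x, against mean FPKM (log axis) for 12414 genes, with dotted lines at ±1. Orange points are the 78 genes whose libraries do not overlap between doses, and circles mark the 4 genes named in the text, which lie at 1.36, 0.64, -0.81 and -1.15.

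The 5 libraries of 1 dose lay entirely above those of the other in 78 of 12414 genes (0.628%), 41 higher and 37 lower at 30000x. A random split of 10 libraries into 5 and 5 separates a gene fully in a share of 0.0079 of the 252 splits. The share found was below that, so the number of separated genes is no sign of a dose difference. In the 41 genes that were higher, the difference was 0.10 to 1.36 with a median of 0.33, and in the 37 that were lower it was -1.52 to -0.12 with a median of -0.31. A difference of at least 1 was reached by 3 of the 41 and by 3 of the 37. Separated groups were seen in 7 of 1318 genes under 2 FPKM and in 33 of 4755 from 2 to under 10. They were seen in 32 of 5664 from 10 to under 100 and in 6 of 677 at 100 or more. In the last class 5 of the 6 were lower, where 72.2% of all 677 genes were lower by any amount on this scale. None of the 78 passed the adjusted test. The count was 77 with quantile normalization and 63 with library totals.

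The 4 genes described next had the smallest unadjusted p in each direction among genes averaging 5 FPKM or more in the higher group. They were selected on this contrast, none passed the adjusted test, and their values are a description of where the libraries lay.

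ENSRNOG00000009465, of 2342 bp, had the smallest p of all genes. At 30x its 5 libraries read 17.2, 15.7, 17.7, 12.9 and 27.6 FPKM in replicates 1 to 5, and at 30000x they read 7.91, 8.98, 8.27, 8.46 and 4.38 FPKM. The groups did not overlap, 30x replicate 5 was the highest and 30000x replicate 5 the lowest. The means were 18.2 ± 5.56 and 7.60 ± 1.84 FPKM (SD, n = 5 each), a 2.40-fold higher level at 30x, with 524 to 1125 reads per library at 30x and 176 to 436 at 30000x. The log2(FPKM + 1) difference was -1.15 (SE 0.21, 95% interval -1.61 to -0.69), with an unadjusted p of 1.6e-04 and a limma adjusted p of 0.892. Male controls averaged 9.51 ± 4.28 FPKM and males at 1000x averaged 12.8 ± 3.30 (SD, n = 5 each), so the controls lay nearer to 30000x than to 30x.

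ENSRNOG00000018402, of 646 bp, was also lower at the highest dose. Its libraries read 6.87, 10.3, 9.58, 9.41 and 5.22 FPKM at 30x and 4.13, 3.65, 4.26, 4.66 and 4.15 FPKM at 30000x. The 30000x libraries lay close together and all below the lowest 30x library. The means were 8.28 ± 2.15 and 4.17 ± 0.36 FPKM (SD, n = 5 each), from 55 to 168 and from 38 to 65 reads. The difference was -0.81 (SE 0.16, 95% interval -1.16 to -0.46, unadjusted p = 3.2e-04, limma adjusted p = 0.892). Controls averaged 4.83 ± 1.73 FPKM and the 1000x males 7.14 ± 1.73 (SD, n = 5 each), and single control libraries ran from 2.47 to 7.15 FPKM, across both dose groups.

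ENSRNOG00000059579, of 3327 bp, was higher at the highest dose and is the best covered of the 4. Its libraries read 32.4, 23.03, 25.4, 35.3 and 26.1 FPKM at 30x and 37.3, 37.8, 45.2, 53.6 and 50.3 FPKM at 30000x. The gap between the groups was narrow, from 35.3 in 30x replicate 4 to 37.3 in 30000x replicate 1. The means were 28.4 ± 5.16 and 44.8 ± 7.31 FPKM (SD, n = 5 each), a 1.58-fold higher level at 30000x, with 1254 to 2292 and 2026 to 3852 reads. The difference was 0.64 (SE 0.14, 95% interval 0.34 to 0.94, unadjusted p = 6.6e-04, limma adjusted p = 0.892). Controls averaged 45.7 ± 6.80 FPKM and the 1000x males 36.7 ± 6.38 (SD, n = 5 each), so the level of the controls was close to that at 30000x and all 5 controls lay above all 5 libraries at 30x.

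ENSRNOG00000055501 has a length of only 94 bp as recovered from the values and rests on few reads. It held 2, 4, 2, 2 and 2 reads at 30x and 11, 9, 18, 6 and 6 reads at 30000x. In FPKM these are 1.33, 2.60, 0.784, 1.23 and 1.30 at 30x and 5.89, 5.94, 8.51, 2.95 and 3.72 at 30000x, a narrow gap between 30x replicate 2 and 30000x replicate 4. The means of 1.45 ± 0.68 and 5.40 ± 2.18 FPKM (SD, n = 5 each) differed 3.73-fold, and the difference was 1.36 (SE 0.25, 95% interval 0.81 to 1.90, unadjusted p = 1.8e-04, limma adjusted p = 0.892). The 1000x libraries held 1 to 6 reads, which overlap both dose groups, and 4 of 5 controls held 0. Counting error alone is large at such depths.

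**Figure D4:**
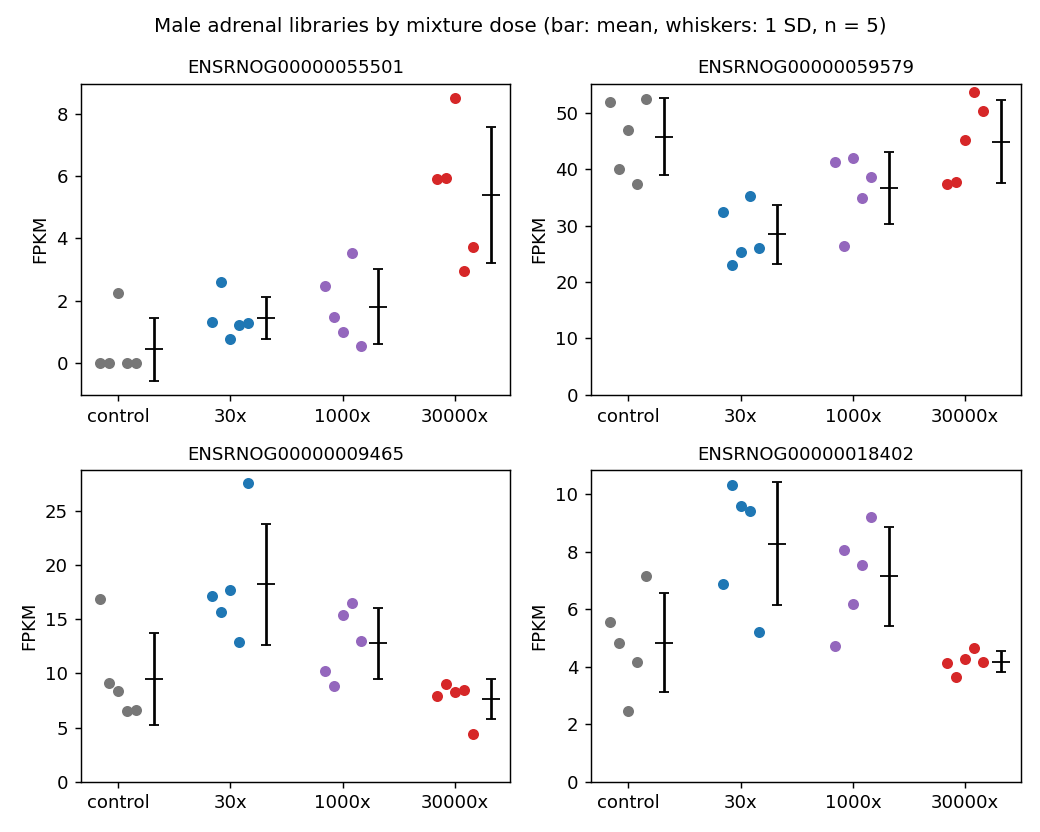
FPKM of the 4 named genes in each of the 20 male libraries by dose, points for libraries, a bar for the mean and whiskers of 1 SD (n = 5). In each panel the 30x and 30000x points do not overlap, and in 3 of the panels the controls lie nearer to 30000x than to 30x.

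The remaining male groups, which the comparison did not use, were placed on a scale from the 30x mean (0) to the 30000x mean (1) for each of the 78 separated genes. Group means were taken on log2(FPKM + 1). At 1000x the mean fell between the 2 doses in 32 of the 41 genes that were higher at 30000x and in 30 of the 37 that were lower. Its median position was 0.70 in the first set and 0.41 in the second, so the 1000x males stood nearer to 30000x in 29 of 41 and nearer to 30x in 21 of 37. The control mean fell between the doses in 26 of 41 and 25 of 37, with median positions of 0.76 and 0.73. Controls stood nearer to 30000x than to 30x in 28 of 41 and in 24 of 37 genes. The control mean lay beyond 30x in 5 of 41 and in 1 of 37, and beyond 30000x in 10 of 41 and in 11 of 37. The genes were selected because their 30x and 30000x libraries lay apart, which by itself favours positions between the 2 doses. These counts therefore cannot tell whether levels follow the order of the doses. How often the 1000x or control mean lies nearer to 30000x over all genes tested was not counted. A lean to either dose therefore cannot be read as a trait of the separated genes. Genes of 1 library vary together, and the counts are a description without a test.

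**Figure D5:**
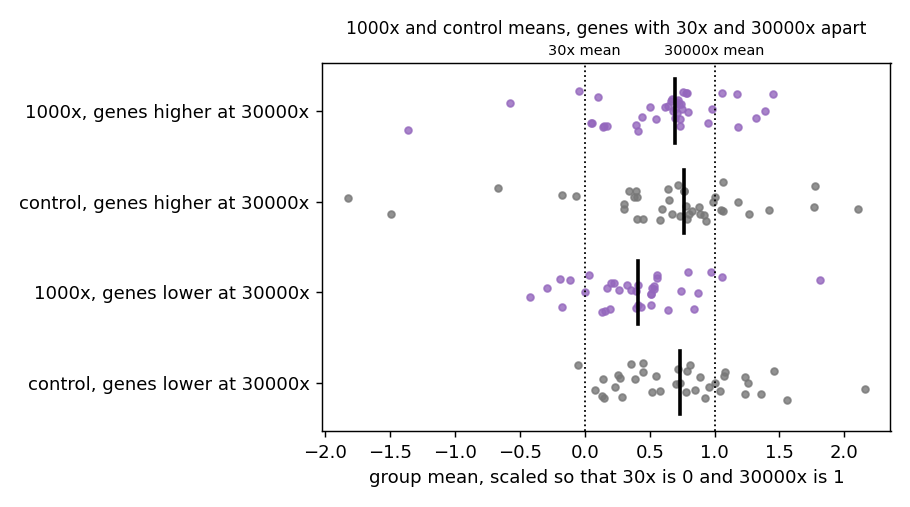
Mean of the 1000x and control libraries (n = 5 each) for the 78 separated genes, on a scale where the 30x mean is 0 and the 30000x mean is 1, with a black line at the median. Medians lie at 0.70 and 0.76 for the 41 genes higher at 30000x and at 0.41 and 0.73 for the 37 lower ones.

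Females were given the same mixture, and the contrast between their highest and lowest dose shares no library with the male one. In a limma fit of the 10 female libraries 0 of 12370 genes (0%) passed, with a smallest adjusted p of 0.061 and 247 genes at an unadjusted p under 0.05, of which 142 were lower. Groups did not overlap in 53 of 12370 genes (0.428%). The female intervals were wider, with a median half-width of 0.420, and lay within ±1 for 88.3% of genes. Of the 41 genes higher at 30000x in males, 38 were tested in females and 20 of these were higher there by any amount. Of the 37 lower in males, all were tested and 16 were lower in females. The median difference over all genes tested in females was -0.011, so more of them were lower than higher at 30000x. The counts of 20 and 16 were not tested against that background.

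Whether the difference between doses was unlike in males and females was tested gene by gene as an interaction over the 20 libraries. In this limma fit 0 of 13203 genes (0%) passed, the smallest adjusted p was 0.999, and 351 genes had an unadjusted p under 0.05. Voom called 0 as well, with 345 at that p. The interval of the interaction lay within ±1 for 77.3% of genes, so that the test was less precise than the contrast in males alone. The 4 named genes were selected on the male difference, which is part of each interaction. Their interactions, male minus female, are therefore enlarged by selection and are a description. For ENSRNOG00000009465 the female means were 10.8 ± 4.31 FPKM at 30x and 11.8 ± 3.66 at 30000x (SD, n = 5 each). Its interaction was -1.29 (SE 0.34, limma adjusted p = 0.999). For ENSRNOG00000059579 the female means were 25.9 ± 5.98 and 28.2 ± 3.35 FPKM (SD, n = 5 each), and the interaction was 0.50 (SE 0.21, limma adjusted p = 0.999). ENSRNOG00000018402 averaged 4.85 ± 3.09 FPKM at 30x and 7.12 ± 5.24 at 30000x in females (SD, n = 5 each), with an interaction of -1.17 (SE 0.52, limma adjusted p = 0.999). ENSRNOG00000055501 averaged 0.38 ± 0.35 FPKM in females at 30x and 0.90 ± 1.61 at 30000x (SD, n = 5 each), too low to enter the female fit. In the fit of 20 libraries its interaction was 1.17 (SE 0.51, limma adjusted p = 0.999).

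Short genes had a larger share at a low unadjusted p than long ones, but did not stand out in separated groups. Of 885 genes under 500 bp by recovered length, 67 (7.57%) had an unadjusted p under 0.05, and the share was 4.47% of 2729 genes from 500 to under 1500 bp, 3.65% of 4818 genes from 1500 to under 3000 bp and 3.09% of 3982 genes of 3000 bp or more. Dose groups did not overlap in 5 of 885, 17 of 2729, 34 of 4818 and 22 of 3982 genes of these classes. Over all genes tested the share was 0.628%. The median abundance of the classes was 5.93, 15.3, 11.8 and 8.42 FPKM, so length and abundance differed together. On the deposited scale the direction moved with length as well. Among genes at that p, 31 short genes were higher and 36 lower at 30000x, and 84 of the longest were higher and 39 lower. The median difference was -0.04 in the shortest class and 0.02 in the longest. By library, the median deviation of short genes from the mean of the 10 libraries, minus that of the longest genes, was 0.18 and 0.10 in 30000x replicates 1 and 2, and -0.15, -0.06 and -0.08 in replicates 3, 4 and 5. At 30x it ran from -0.03 to 0.09. The 30000x libraries thus stood on both sides of the 30x libraries in this measure, whose part in the differences of single genes was not tested.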

How the data were processed

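Total RNA of adrenal glands was sequenced on an Illumina system, read from both ends, per the labels' protocols. HISAT2 2.0.5 and featureCounts 1.5.0-p3 are named in the submitters' processing notes; the sources used here name no build, annotation, strand setting or read filter. Per library, the authors deposited FPKM for each gene. Whole reads were solved from the steps of these values where at least 3 libraries had a value (20717 genes, 680244 values). A length was accepted only if all values of the gene came within 0.05 of a whole read. All 20717 genes had such a length, so the closeness of the values is set by this rule and is no separate check. A length is the shortest that gives whole reads.

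The 10 libraries were fitted alone on log2(FPKM + 1) with limma 3.58.1 (R 4.3.3), trended prior, two-sided, Benjamini-Hochberg adjusted over all genes tested, threshold 0.05. The interaction with sex used the 20 libraries at 30x and 30000x. Library values were compared by exact permutation over 252 splits. Python 3.11.15, numpy 2.4.6, pandas 2.3.3 and matplotlib 3.10.9 served for recovery and plots.

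The libraries, lists and tests were chosen with earlier results of these data known. With fewer than 20 calls the rule for named genes asked for the smallest p in each direction at a mean of at least 5 FPKM in the higher group, up to 10 each way; without gene names it was reduced to 2 each way. The part of the rule on gene lists, and the marker lists, were not used. The library comparisons and the classes of abundance and length were added after seeing the data.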

Additional observations from a re-analysis of the deposited data

Results flagged for a closer look

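In 3 of 18 groups of 5 values examined, 1 library lay far from the other 4. Chance gives about 1 in 20, but the groups share libraries and include a gene selected on this contrast, so no excess is claimed. Of the 30x libraries, replicate 3 held 23838651 recovered reads, against at most 16888392 in the others. Of the same group, replicate 5 had a median correlation of 0.9597 with its group. In ENSRNOG00000009465, 30000x replicate 5 read 4.38 FPKM, below 7.91 to 8.98 FPKM in the other 4 libraries of that dose.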

How the results depend on the processing

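The count of called genes stayed at 0 for the male contrast under all 12 alternatives and in the 10 fits that left out 1 library each, and for the interaction with sex under all 10 alternatives and in 20 such fits. The alternatives were another pseudocount (0.1), no filter, quantile normalization, a filter at a mean of 5 FPKM, library totals, library weights, a replicate block, voom, a prior without trend, a fit of all 40 libraries and, for the male contrast, a fit of all 20 male libraries and a block on runs of consecutive numbers in the column names, which was added after seeing the data. The smallest adjusted p in males over these settings was 0.161, without 30x replicate 5, and for the interaction 0.246, without female 30000x replicate 2. In place of 488, the male genes at an unadjusted p under 0.05 numbered 806 without the filter and 314 at a mean of at least 5 FPKM. Other numbers of genes were tested there. Of the same 12414 genes, 680 were at that p with library weights and 238 in the fit of 40 libraries, where 5% is 621. Without 30000x replicate 1 there were 829 of 12308 genes. In place of 351, the interaction had 593 without the filter, 196 at a mean of at least 5 FPKM and 213 with library totals. Without female 30000x replicate 2 it had 562 of 13138 genes. The cause of these changes, apart from the number of genes tested, was not tested. The 4 named genes kept their direction in every setting that tested them, which is no separate evidence. They were selected on this contrast and their dose groups do not overlap, so leaving out 1 library cannot reverse them. None of the 4 passed, with adjusted p from 0.161 to 1. Whether replicate numbers in the titles pair the libraries cannot be settled from 5 pairs. The correlation of deviations ran from -0.20 to 0.11, and 2 of 5 libraries at 30000x correlated best with their own number. The replicate block gave 0 calls, as did the fit without it, with 459 genes at an unadjusted p under 0.05 in males. The difference of 13.6 in genes at 1 FPKM or more ran from -25.7 to 57.05 when 1 library was left out. About 2 to 18 reads carry ENSRNOG00000055501, and for genes under 2 FPKM the depth leaves intervals with a median half-width of 0.40.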
